A study of Caenorhabditis elegans with 4 samples.

Results

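The collagens of the adult cuticle were examined in wild-type *C. elegans* kept with or without remofuscin. They are 7 genes, *col-7*, *col-19*, *col-62*, *col-63*, *rol-1*, *bli-1* and *bli-2*, listed by name as collagens of the adult cuticle and its struts. Their 12 probes were found on the array by the systematic gene name of each probe, among 43603 probes of which 34320 could be named, for 19814 genes. The rule uses names only. *col-62* has 4 probes, *col-7* and *col-19* have 2 each, and the other 4 genes have 1 each, and every probe is printed once on an array.

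The worms were of the Bristol strain N2, carried no mutation or transgene, and were fed *E. coli* OP50 at 25 °C. From the last larval stage, which the study counts as the first day of adulthood, their plates held remofuscin, also called soraprazan, for 14 days. Its dose was 200 µM or, for the NC, 0 µM. The work was done in 2 experiments, each with 1 NC array and 1 remofuscin array, and each group thus holds 2 arrays. Total RNA came from pooled whole worms, so the epidermis, which makes the cuticle, contributed only part of it. The sources used here do not say whether the control plates of the arrays held the solvent of the compound. They also do not say whether offspring were kept from growing on these plates, and no other age was analysed here, so the stage at which a gene is used was not measured.

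The cuticle of *C. elegans* is an extracellular coat built mostly of collagens, which the epidermis secretes and cross-links. A new cuticle is made before each moult, and different collagen genes are used for different cuticles. The adult cuticle is made at the last moult, after which the worm does not moult again. In the adult, a fluid-filled layer separates the outer and inner sheets, and columns called struts bridge it. BLI-1 and BLI-2 are collagens needed for the struts, and worms that lack them form fluid-filled blisters. *col-19* and *col-7* are switched on in the epidermis at the change from larva to adult, under the transcription factor LIN-29, and *rol-1* is known from mutants that roll as adults.

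Signals are given after each array was scaled to its 75th percentile, in the intensity units of the scanner, and they carry no common scale between probes. The difference between remofuscin-treated worms and NC was tested with limma, on probes with a signal that the scanner software marked as well above background for 2 or more arrays of the 4. The limits for a call are a p below 0.05 before adjustment together with a 2-fold rise or a fall to 0.5 or less, and the adjusted p is Benjamini-Hochberg's over all 29094 tested probes. No label names separate cultures beyond the experiment, so p-values measure only the spread between these arrays. In detection and brightness the arrays were alike. They had 63.3% to 66.6% of their spots well above background, 75th percentiles between 603 and 786 before scaling, and 0 saturated spots. The experiments still differed, since the deviations of paired arrays from their group means correlated over probes (Pearson's r of 0.736). The main test does not use this pairing. With 2 arrays a group, the number of arrays limits the precision of every value. No sequence is shown, since probe and gene sequences were not at hand, and hybridization of a probe to a related collagen was not examined.

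Transcripts of *col-7*, *col-19* and *rol-1* were higher in remofuscin-treated worms than in NC worms, by 6.39-fold, 5.80-fold and 3.69-fold, while *col-63* differed by 1.07-fold. The strut collagens *bli-1* and *bli-2* and the 4 probes of *col-62* gave too little signal for a comparison. Of the 12 probes, 6 were tested, for 4 genes, and all 6 were well above background on all 4 arrays. Of these 6, 5 probes passed the limits as higher, against 1.84% of all tested probes. As lower, 0 of the 6 passed the limits (against 1.01%) and 0 the adjustment (0.0653%). The adjusted p was under 0.05 for 3 of the 6, against 0.371% of all tested probes for rises. By gene, 3 of the 4 tested genes passed the limits as higher (2.23% of all tested genes), and 2 had an adjusted p under 0.05 (0.474%). Of the same 4 genes, 0 were lower past the limits (0.895%) or after adjustment (0.0745%). In whole worms, a change in the number of epidermal cells that make a transcript and a change in RNA per cell cannot be told apart.

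**Figure D1:**
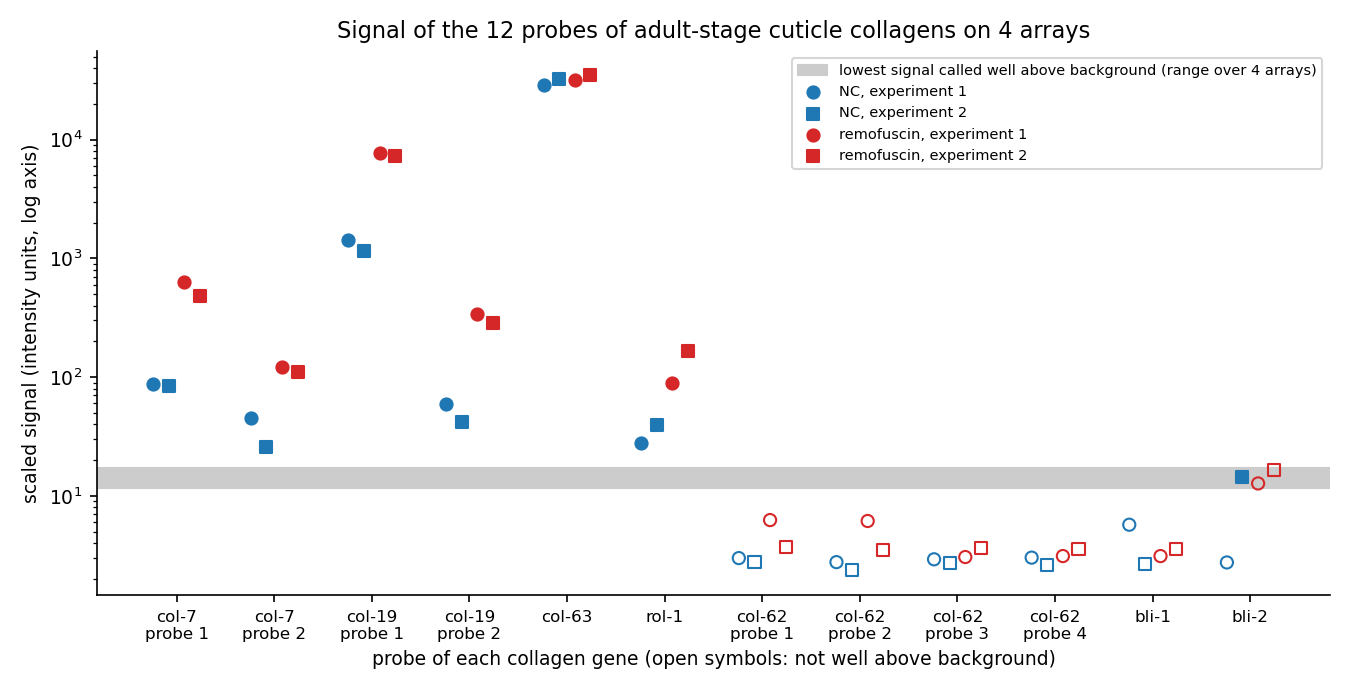
Scaled signal (intensity units, log axis) of the 12 probes of the 7 collagen genes on the 4 arrays, with NC in blue, remofuscin in red, experiment 1 as circles and experiment 2 as squares; open symbols were not well above background. The red symbols of both *col-7* probes, both *col-19* probes and *rol-1* lie above the blue ones, those of *col-63* lie close to them, and the probes of *col-62*, *bli-1* and *bli-2* lie in or under the grey band from 11.7 to 17.3, the lowest signals called well above background.

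*col-19* (ZK1193.1, chromosome X) is the collagen most used as a mark of the adult epidermis. In experiments 1 and 2 its brighter probe read 1432 and 1151 in NC worms, and 7672 and 7233 in remofuscin-treated worms. Both treated arrays stood far above both NC arrays, and the arrays of a group lay close together (1292 ± 198 in NC and 7453 ± 310.5 with remofuscin, mean ± SD, n = 2). Within experiment 1 the signal was 5.36-fold higher with remofuscin, and within experiment 2 it was 6.28-fold higher. The log2 difference was 2.54 with a standard error of 0.38 (limma adjusted p = 0.0359), which gives a 95% interval of the fold change from 3.19 to 10.6.

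The dimmer *col-19* probe read 59.0 and 41.7 in NC and 340.2 and 283.5 in remofuscin-treated worms. Its log2 difference was 2.65 ± 0.39 (SE, limma adjusted p = 0.0359), with 2.53 in experiment 1 and 2.76 in experiment 2. As scaled here, both probes of *col-19* gave nearly the same change, while with normexp background correction the brighter gave 2.52 and the dimmer 1.77 (adjusted p = 0.105). Without the filter on dim probes the adjusted p of the dimmer probe was 0.0554. Within the arrays, the log2 ratio of the brighter to the dimmer probe changed by -0.11 with remofuscin, with overlapping groups (exact permutation test, two-sided, p = 0.667). With 2 arrays against 2, this test cannot go below 0.333.

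*col-7* (C15A11.5, chromosome I) is, like *col-19*, a collagen that LIN-29 is known to act on. Its brighter probe read 87.8 and 84.0 in NC worms and 629.7 and 478.5 in remofuscin-treated worms. The NC arrays were nearly equal (85.9 ± 2.70, SD, n = 2), the treated arrays differed more (554 ± 107, SD, n = 2), and the groups did not overlap. The signal was 7.17-fold higher with remofuscin in experiment 1 and 5.70-fold higher in experiment 2. The log2 difference was 2.68 ± 0.38 (SE, limma adjusted p = 0.0291), with a 95% interval of the fold change from 3.49 to 11.7. With normexp background correction, which here adds 50 to every signal, the log2 difference was 2.09.

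The dimmer *col-7* probe read 45.2 and 25.7 in NC and 120.9 and 109.6 in remofuscin-treated worms. The groups did not overlap, and the probe passed the limits with a log2 difference of 1.76 ± 0.42 (SE, limma unadjusted p = 0.00291), a 3.38-fold change with a 95% interval from 1.73 to 6.60. Its adjusted p was 0.30, above the threshold that the brighter probe passed, and 6.33e-09 with the experiment as a block. In experiment 1 their log2 differences were 2.84 and 1.42, and in experiment 2 they were 2.51 and 2.09. The log2 ratio of the brighter to the dimmer probe was higher with remofuscin by 0.92, without overlap of the groups (exact permutation test, two-sided, p = 0.333, the smallest this design can give).

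*rol-1* (Y57A10A.11, chromosome II) read 28.02 and 39.2 in NC worms and 89.6 and 167.3 in remofuscin-treated worms. Both treated arrays were above both NC arrays. In signal units the treated arrays differed from each other nearly as much as the group means did (33.6 ± 7.89 in NC and 128 ± 54.9 with remofuscin, SD, n = 2). On the log2 scale of the test, the treated arrays read -2.95 and -2.05, against -4.63 and -4.14 in NC. The log2 difference was 1.89 ± 0.45 (SE), with 1.68 in experiment 1 and 2.09 in experiment 2. This 3.69-fold change (95% interval from 1.82 to 7.51) passed the limits (limma unadjusted p = 0.00271) but not the adjustment (adjusted p = 0.284). Without the remofuscin array of experiment 2 the log2 difference was 1.44 (adjusted p = 1.00), and without that of experiment 1 it was 2.34 (0.0839). Without the NC array of experiment 1 it was 1.64 (0.0382), without that of experiment 2 it was 2.13 (0.00104), and with normexp background correction it was 0.96. When limma was fitted with the experiment as a block, the adjusted p of *rol-1* was 2.68e-10, from a fit that gives every probe the same standard deviation.

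*col-63* (ZK265.2, chromosome I) was well above background on all arrays, at 29154 and 32693 in NC and 31667 and 34745 in remofuscin-treated worms. The groups overlapped, since the treated array of experiment 1 lay between the NC arrays. Its log2 difference was 0.10 ± 0.37 (SE, limma adjusted p = 1.00), with 0.12 in experiment 1 and 0.09 in experiment 2. The 95% interval of the fold change ran from 0.595 to 1.94, which leaves room for a rise of nearly 2-fold and for a fall to 0.595 of the NC signal.

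**Figure D2:**
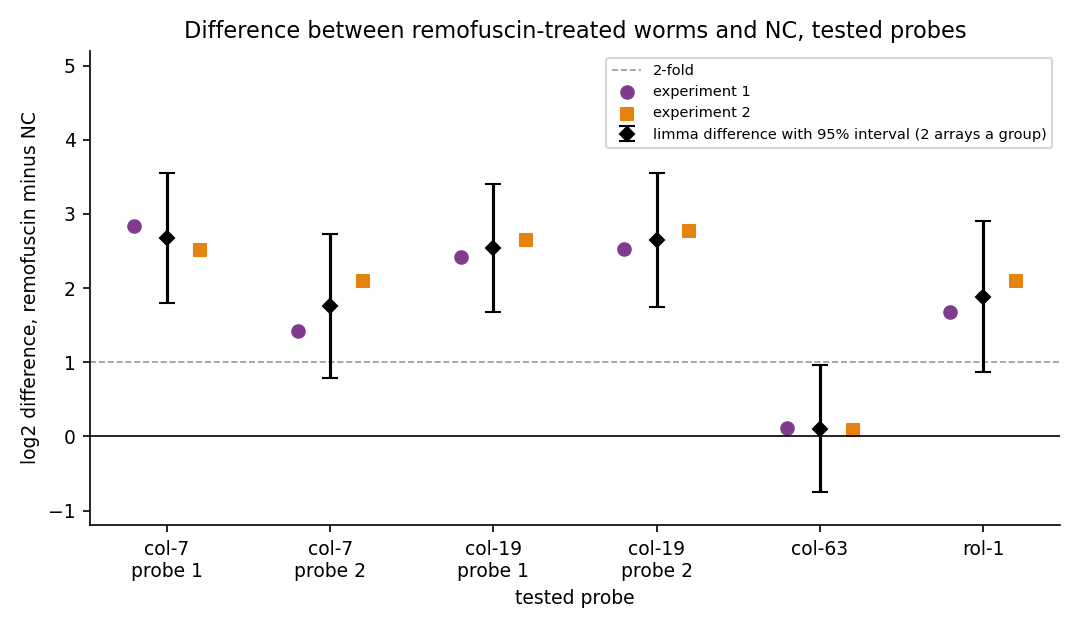
Log2 difference between remofuscin-treated worms and NC for the 6 tested probes, within experiment 1 (purple circles), within experiment 2 (orange squares) and from limma (black diamonds, with the 95% interval from 2 arrays a group). Both experiments lie above the dashed 2-fold line for the probes of *col-7*, *col-19* and *rol-1*, and the interval of *col-63* spans 0.

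Within an array, a ratio of the signals of 2 probes does not depend on how arrays are scaled to each other, and the 6 pairs of the 4 genes were compared in this way. The log2 ratio of *col-19* to *col-63* was higher with remofuscin by 2.43 (2.30 in experiment 1 and 2.56 in experiment 2), and that of *col-7* to *col-63* by 2.57 (2.72 and 2.42). The log2 ratio of *col-63* to *rol-1* changed by -1.78 (-1.56 and -2.01). In these 3 pairs the groups did not overlap, and the exact permutation test gave p = 0.333 in each, the smallest possible (0.667 after Benjamini-Hochberg adjustment over the 6 pairs). The ratio of *col-7* to *col-19* differed by 0.14, that of *col-7* to *rol-1* by 0.79 and that of *col-19* to *rol-1* by 0.65. In these 3 pairs the groups overlapped (exact p = 0.667).

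The size of the rises can be set against all tested genes, each read from its brightest probe. Of the 14756 tested genes, 65 (0.44%) had a larger log2 difference than *col-7*, 75 (0.508%) than *col-19*, 131 (0.888%) than *rol-1* and 5620 (38.1%) than *col-63*. The interquartile range over the tested genes ran from -0.21 to 0.22. Before any scaling between arrays, the groups of the *col-7*, *col-19* and *rol-1* probes also did not overlap. The unscaled signal of the brighter *col-19* probe was 6.44-fold higher in experiment 1 and 5.35-fold higher in experiment 2, that of *col-7* 8.62-fold and 4.85-fold, and that of *rol-1* 3.84-fold and 3.64-fold. The unscaled signal of *col-63* was 1.31-fold higher in experiment 1 and 0.905 of the NC signal in experiment 2. In 5 of the 6 tested probes, both treated arrays were above both NC arrays after scaling, as in 8.53% of all tested probes. By gene this held for 3 of the 4, and for 9.43% of all tested genes.

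The struts of the adult cuticle could hardly be read. *bli-1* (C09G5.6, chromosome II) gave 5.71 and 2.65 in NC and 3.11 and 3.57 in remofuscin-treated worms. None of these was well above background (0 of 4 arrays), and in 3 of the 4 readings the signal equalled its own error estimate within 1%. The groups overlapped, with the NC array of experiment 1 highest.

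*bli-2* (F59E12.12, chromosome II) gave 2.75 and 14.3 in NC and 12.7 and 16.4 in remofuscin-treated worms. Only the NC array of experiment 2 was called well above background, although the treated array of experiment 2 gave a slightly higher signal. The NC reading of experiment 1 equalled its error estimate, and the other 3 were between 4.01 and 4.90 times theirs. In experiment 1 the log2 difference was 2.21, against a NC reading at its error estimate, and in experiment 2 it was 0.20. The groups overlapped and no fold change is given.

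*col-62* (C15A11.6, chromosome I) lies next to *col-7* in the genome, and its 4 probes were well above background on 0 of the 4 arrays. The first probe gave 2.99 and 2.76 in NC and 6.25 and 3.72 in remofuscin-treated worms, and the second 2.76 and 2.36 against 6.14 and 3.49. The third gave 2.92 and 2.73 against 3.05 and 3.65, and the fourth 3.01 and 2.62 against 3.11 and 3.55. All 16 readings lay between 2.36 and 6.25, under the lowest signals called well above background, which were 11.7 to 17.3 on the 4 arrays. In 14 of the 16 the signal equalled its error estimate within 1%, so the order of these readings carries no information. The exceptions were the first and second probes on the treated array of experiment 1, at 1.99 and 2.10 times their error. The scanner software called these 2 readings positive and significant, but not well above background.

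Taking all 7 genes as measured, by their brightest probes, the median log2 difference was 1.21. It falls on *bli-2* and says little, because 11 of the 12 readings of the 3 untested genes were not well above background. The untested probes together gave 24 readings, of which 18 equalled their error estimate within 1% and 6 were called positive and significant by the scanner software. The tested probes were at least 6.81 times their error on every array.

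The genes whose pattern over the 4 arrays was most like that of each tested collagen were found by the Euclidean distance between mean-centred log2 signals, among 14755 other tested genes. For *col-19* they were the collagen genes *col-20* (distance 0.131), *col-150* (0.170) and *col-42* (0.190), with log2 differences of 2.67, 2.40 and 2.61. For *col-7* they were *col-20* (0.274), *grd-14* (0.293), a hedgehog-related gene, and *col-19* (0.315). *col-7* in turn was the 9th most alike to *col-19*. These distances are a description over 4 arrays, and all these genes share the same pair of high arrays.

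*rol-1* had other nearest genes. They were *abu-6* (0.0889), *T07D3.3* (0.314) and *pcp-2* (0.360), with log2 differences of 1.90, 1.62 and 1.97. *col-19* ranked 130th and *col-7* 220th in likeness to *rol-1*. For *col-63* they were *fkb-6* (0.0371), which encodes a protein of the FK506-binding family, *C04A11.1* (0.0372) and *che-14* (0.0408), a Dispatched-related gene of epithelia, with log2 differences of 0.08, 0.09 and 0.12.

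Collagens known from other stages, or from all stages, were read from a list of 9 genes, of which 8 have a probe and 7 were tested. *col-17* and *sqt-1* passed the filter on dim probes only through the arrays of treated worms, where they are high, so they are given as values without a test. Of the other 5, 3 rose at an adjusted p under 0.05 (0.474% of all tested genes did) and 0 fell (0.0745%). Their median log2 difference was 3.44, beside 0.00 over all tested genes. *col-17*, a collagen of larval cuticles, read 2.78 and 2.99 in NC, where it was not well above background, and 130.1 and 178.2 in remofuscin-treated worms. With remofuscin it was at least 12.1-fold higher. A bound of at least N-fold is taken from the lowest signal called well above background on each NC array.

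*sqt-1*, a collagen that shapes the body, read 6.995 and 11.8 in NC worms, again not well above background, against 162 and 201 under remofuscin, or at least 14.3-fold higher. *rol-6*, which like *sqt-1* gives rolling worms when mutated, read 23.5 and 13.7 against 255.5 and 230.8, a 13.5-fold rise (limma adjusted p = 0.00944). *col-13*, which was well above background on 1 of the 2 NC arrays, rose with a log2 difference of 4.34 (adjusted p = 0.0277), which ran from 3.39 to 5.30 with 1 array left out and rests in part on the dim NC reading. *col-12*, named after its value was seen, rose 10.9-fold (adjusted p = 0.0225). *sqt-3* had a log2 difference of 1.36 (unadjusted p = 0.122) and *col-40* of 0.06, while *col-2* was not well above background on any array. With normexp background correction, the log2 differences of *col-17*, *col-13*, *sqt-1* and *rol-6* were 1.67, 1.77, 1.51 and 1.89. The summed signal of the 7 tested genes of the list, *col-17* and *sqt-1* included, was 203 and 132 in NC and 1936 and 1717 with remofuscin. The brightest probes weigh most in this sum, and *col-12* alone read 130 and 63.2 in NC against 1096 and 884. The part of this list in the rises of the adult-stage collagens was not tested, and the difference between the lists was not tested either.

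**Figure D3:**
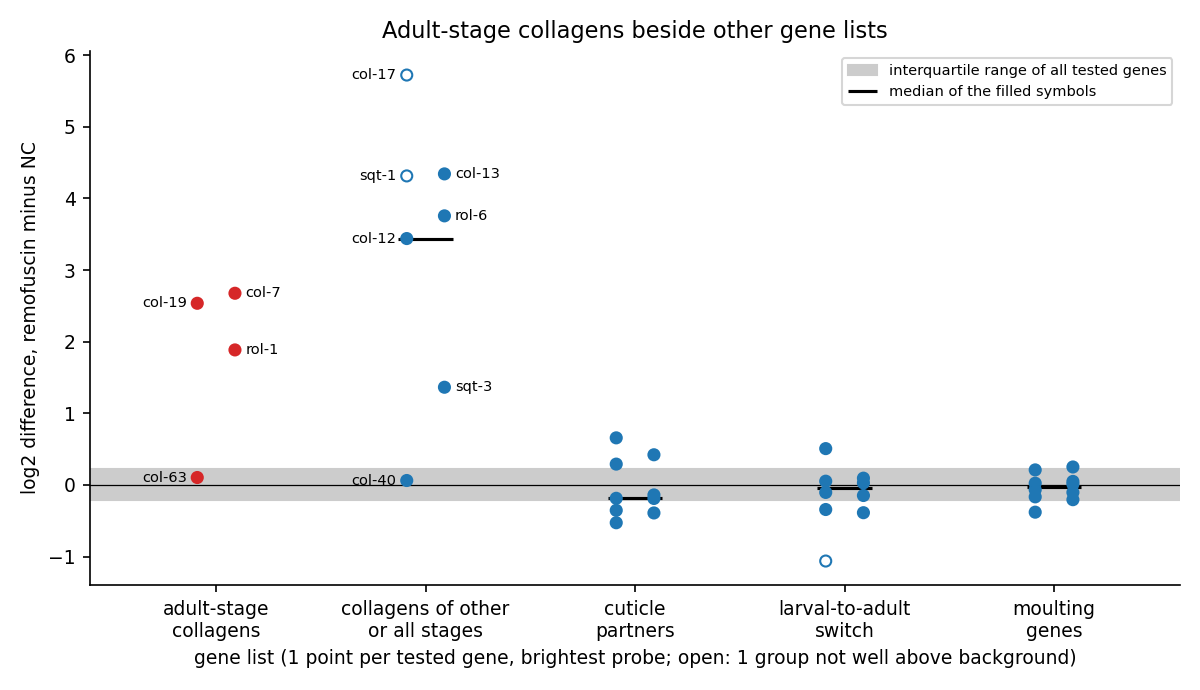
Log2 difference between remofuscin-treated worms and NC for each tested gene of 5 lists, with the median of the filled symbols of each comparison list as a black line and the interquartile range of all tested genes as a grey band; open symbols had 1 group not well above background. *col-7*, *col-19* and *rol-1* lie between 1.89 and 2.68, and 5 collagens of other or all stages lie higher. The cuticle partners, the genes of the larval-to-adult switch other than *lin-42* and the moulting genes lie between -0.53 and 0.66.

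The enzymes and partners that the adult cuticle needs were read from a fixed list. It holds 10 genes for strut formation, cross-linking by the dual oxidase complex, and the trimming and hydroxylation of collagens, and 9 were tested. None passed the limits in either direction, beside 2.23% of all tested genes as higher and 0.895% as lower. Of the 9, 0 had an unadjusted p under 0.05 with limma or with the methods' t-test. The share of all tested genes under that p alone was not counted. The median log2 difference was -0.19. *bli-6*, a collagen gene in which mutation also gives blisters, was well above background on 3 arrays and had a log2 difference of 0.66 (1.16 in experiment 1 and 0.15 in experiment 2, limma unadjusted p = 0.148). *bli-3*, the dual oxidase, had a log2 difference of -0.53 (unadjusted p = 0.257) and *bli-4*, a protease that trims collagens, of -0.35 (unadjusted p = 0.382).

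Genes of the larval-to-adult switch were read from a list of 12, of which 9 were tested. *lin-29*, which encodes the factor that acts on *col-19* and *col-7*, read 63.8 and 125 in NC and 53.2 and 93.5 in remofuscin-treated worms. Its groups overlapped, and its log2 difference was -0.34 (limma unadjusted p = 0.497). *lin-42*, a relative of the period genes of other animals, has 2 probes. The brighter read 14.8 and 18.3 in NC against 9.45 and 6.56 with remofuscin, where it was not well above background. It was at least 1.09-fold lower, a bound taken here from the remofuscin arrays. With the mean of the probes of the gene, the log2 difference was -0.41. The brighter probe passed the filter only through the NC arrays, so no test is given for *lin-42*. Of the other 8 tested genes, 0 passed the limits in either direction, beside 2.23% of all tested genes as higher and 0.895% as lower. Of these 8, 0 had an unadjusted p under 0.05 with limma or the methods' t-test, for which no share over all tested genes was counted. Their median log2 difference was -0.04.

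Genes of the moult outside the collagens stayed within a narrow range. Of 12 genes, 11 have a probe and 10 were tested, with log2 differences from -0.38 to 0.25 and a median of -0.03. Of the 10, 0 passed the limits in either direction, beside 2.23% of all tested genes as higher and 0.895% as lower. An unadjusted p under 0.05 was found for 0 with limma or the methods' t-test, again without a share over all tested genes.

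Markers of tissues were read beside the collagens, and 20 of 21 were tested. Of these, 2 passed the limits as higher (2.23% of all tested genes did), 1 of the epidermis and 1 of its seam cells. Of the same 20, 0 had an adjusted p under 0.05 (0.474% of all tested genes for rises and 0.0745% for falls). *dpy-7*, a collagen gene used as a mark of the epidermis, read 37.7 and 23.6 in NC and 118 and 111 with remofuscin, with a log2 difference of 1.94 (adjusted p = 0.17), and *grd-10*, a mark of the seam cells, had one of 1.72 (adjusted p = 0.37). The epidermal transcription factor genes *lin-26* and *elt-3* had log2 differences of -0.07 and 0.09, and the seam cell factor gene *ceh-16* of -0.14, while the seam cell gene *wrt-2* was well above background on 1 array only. The summed signal of the 3 epidermal markers, nearly all from *lin-26* and *elt-3*, was 3846 and 4786 in NC and 4013 and 4915 with remofuscin. For the 2 tested seam cell markers the sum was 169 and 170 in NC and 293 and 260.0 with remofuscin. Of these 2, *grd-10* read 70.8 and 38.4 in NC against 194 and 152, and *ceh-16* read 98.1 and 131 against 98.1 and 108. All 3 epidermal and 5 intestinal markers were above background on all arrays, and the 4 germ line markers had a median of -0.09. Outside the epidermis, the highest log2 differences were those of the muscle gene *unc-54*, 0.91 (limma unadjusted p = 0.158), and the intestinal gene *ges-1*, 0.50 (limma unadjusted p = 0.213). They are the top genes of their lists, whose medians were 0.27 for muscle and 0.01 for intestine. With the methods' t-test, 2 of the 20 markers had an unadjusted p under 0.05, 1 of the epidermis and 1 of the intestine. The share of all tested genes under that p was not counted, so this count cannot be read as a result about the markers. The part of these cell types in the rises of the collagens was not tested.

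**Figure D4:**
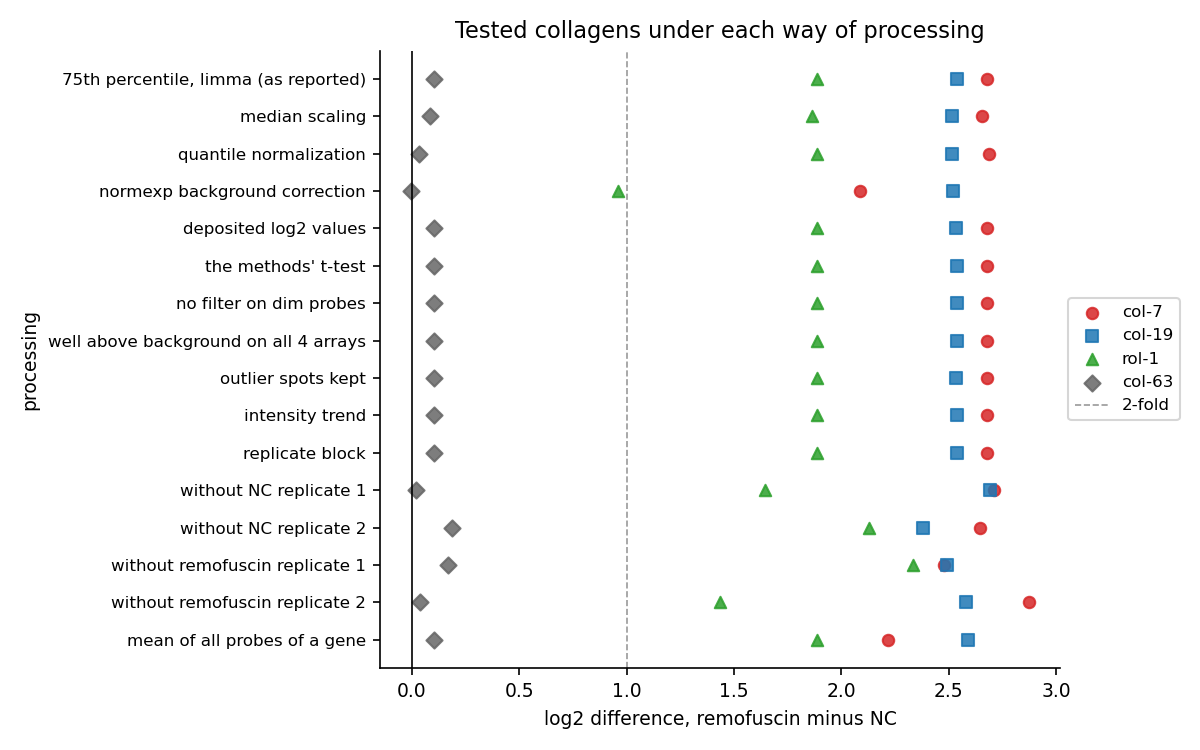
Log2 difference between remofuscin-treated worms and NC (horizontal axis) of the 4 tested collagens, brightest probe, as reported and under each of the 15 alternatives (vertical axis). *col-19* stays between 2.38 and 2.69 and *col-7* between 2.09 and 2.87, *rol-1* runs from 0.96 to 2.34, and *col-63* stays within 0.19 of 0.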

How the data were processed

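RNA was measured on 1-colour Agilent *C. elegans* arrays, 4 on 1 slide. The deposited scanner files hold intensity values, which Feature Extraction (version 11.5.1.1, per the file headers) corrected for background, without scaling between arrays. The authors also deposited log2 values of the same arrays, which for at least 99.97% of probes differed from the scanner's by no more than 0.01. Their column medians were between 5.84 and 6.03, so they are unscaled and uncentred.

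Here, control and outlier-marked spots (8 to 38 an array) were left out, spots of 1 probe averaged, and the 75th percentile of each array subtracted on the log2 scale. Printed signals are these values times 692, the geometric mean of the 75th percentiles, after taking antilogs. A probe called well above background by 2 or more of the 4 arrays entered the fit, made with limma 3.58.1 in R 4.3.3, unpaired and with 2 residual degrees of freedom. The step was run on simulated data with known changes, as a check of the code only. The simulated noise was independent and had the same spread for every probe, without pairing by experiment. It therefore cannot show how sure the calls on these arrays are. Tests are two-sided. Python 3.11.15 was used with matplotlib 3.10.9, scipy 1.17.1, numpy 2.4.6 and pandas 2.3.3.

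Gene names came from a WBcel235 table and reached 78.7% of the 43603 probes. The array design rests on an older build, so chromosomes and neighbours are given without positions. The text names all 7 collagens with every probe, genes past the limits in each list (at most 4, with no test for those that passed the filter through 1 group only), and the 3 most alike genes of each tested collagen. *col-12*, the markers, *sqt-3*, *col-40*, *col-2*, *bli-6*, *bli-3*, *bli-4* and *lin-29* were named outside that rule, after their values were seen. The collagens and the lists were chosen with earlier results of these data known.

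The 15 alternatives were median and quantile scaling, normexp on the median spot signal, with 50 added (the output holds no mean spot signal), the deposited log2 values, the methods' t-test, 2 other filters on dim probes, outlier spots kept, an intensity trend, the experiment as a block, each array left out, and the mean of a gene's probes. The experiment numbers pair the arrays, since per the labels every experiment holds 1 array of both groups. The deviations of paired arrays from their group means correlated over 29060 probes, which are not independent replicates, with a Pearson's r of 0.736 and a Spearman's rho of 0.763.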

Additional observations from a re-analysis of the deposited data

How the results depend on the processing

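With 2 arrays a group and signals of 28.02 to 167.3, *rol-1* was the tested collagen least sure of its call, and the lowest signal called well above background was 11.7 to 17.3, by array. *col-7* and *col-19* passed the limits under all 15 alternatives, with log2 differences from 2.09 to 2.87 and from 2.38 to 2.69, and adjusted p-values up to 0.894 and 0.870 (the methods' t-test). *rol-1* ranged from 0.96 to 2.34, with adjusted p-values from 2.68e-10 to 1.00, and lost its call under normexp (0.96), whose added offset of 50 compresses dim signals by construction, and under the methods' t-test (unadjusted p = 0.0663). *col-63* turned to -0.0022 under normexp. The dimmer *col-7* probe lost its call under normexp (0.91) and the methods' t-test (unadjusted p = 0.0511). The count of collagens higher past the limits was 3, and 2 under normexp and the methods' t-test, and the count lower was 0 throughout.

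Of the 159 alternatives for single genes and probes, 146 kept the direction and the side of the limits, 12 lost the call and 1 turned. Besides the tested collagens they cover *col-13*, *rol-6* and the genes that passed the filter through 1 group only, *col-17*, *sqt-1* and *lin-42*. Of the 146, 14 were of *col-17* and 14 of *sqt-1*. Of the 12 lost calls, 8 were of *lin-42*, 2 of *rol-1* and 2 of the dimmer *col-7* probe. The 2 collagens with an adjusted p under 0.05 became 0 with the methods' t-test, 1 without a filter on dim probes (*col-19*, 0.0510, was lost), 1 with the mean of the probes of a gene (*col-7*, 0.0545, was lost) and 3 with the experiment as a block (replicate block), without NC replicate 1 and without NC replicate 2, where *rol-1* joined. With the block, the collagens higher past the limits stayed at 3 and lower at 0, the median over the 7 genes at 1.21, and 660 probes were higher and 316 lower past the limits, with 918 and 564 at an adjusted p under 0.05. That fit and those with 1 array left out give all probes 1 common standard deviation, and a lone array is assumed to vary like the other group.

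The median over the 7 genes, 1.21, was 0.093 under normexp and ran from 0.80 to 2.13 with 1 array left out, the highest without NC replicate 2. Probes higher past the limits were 535, and 219 under normexp, 242 with the methods' t-test and 378 to 1610 with 1 array left out, the most without NC replicate 1. Probes lower were 295, and 16 under normexp, 157 with the methods' t-test, 680 without a filter, 70 with all 4 arrays required and 233 to 962 with 1 array left out, the most without NC replicate 1. At an adjusted p under 0.05, the 108 rises and 19 falls (85.0% higher) became 166 and 70 with median scaling (70.3% higher), 60 and 0 under normexp, 0 and 0 with the methods' t-test, 48 and 0 with all 4 arrays required, 87 and 11 without a filter, 98 and 2 with an intensity trend, and 120 to 386 and 26 to 154 with 1 array left out, the most rises without NC replicate 1 and the most falls without NC replicate 2. The adjusted p of the dimmer *col-19* probe was 0.0359, and 0.105 under normexp, 0.0554 without a filter and 1.00 with the methods' t-test. The cause of these changes was not tested.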
